A study of Homo sapiens with 21 samples.

Results

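The 43 collagen genes on the array were followed in HEY cells, a human ovarian carcinoma cell line, after transfection with mir-429 or with a control miRNA. They were chosen by name alone, as every gene whose platform symbol reads COL, a number, A and a number, out of 19775 genes with a probe set of a single gene symbol. The 43 genes had 112 such probe sets, and the brightest of them on average stood for its gene. Of the 43 genes, 22 exceeded the median of 3 or more arrays and were tested together with all others that did, 12879 genes in total. By type, 11 members were fibrillar and 5 of them were tested, 6 were basement membrane (type IV) genes and 5 were tested, 3 formed networks and 1 was tested, and 10 were FACIT genes and 4 were tested. The remaining members were 5 beaded filament (type VI) genes with 3 tested, 1 anchoring fibril gene that was tested, 2 multiplexins with 1 tested, 3 transmembrane collagens with 1 tested and 2 others with 1 tested.

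There were 7 groups of 3 arrays each, which makes 21 arrays. The groups were cells given mir-429 at 24, 48 and 144 h, cells given the control miRNA at the same times, and untransfected cells at 0 h. All cells were the same unmodified line, grown in serum-containing medium, and both miRNAs were delivered with the same lipid reagent, which the untransfected cells did not receive. Cells labelled synthetic mirna were read as the negative control that the design names. The labels call replicates biological without saying how cultures were kept apart, and p-values cover only the spread between these samples. The cells are 1 line without stroma or a matrix laid down by other cells. On arrays of whole cultures, fewer cells of a kind and less RNA per cell cannot be told apart.

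Collagens are the main structural proteins of the extracellular matrix, and each is built from 3 chains wound into a helix. Fibrillar collagens give tissues their tensile strength, type IV collagens form the sheet of basement membranes, and FACIT collagens sit on the surface of fibrils. Network and beaded filament collagens link cells to their surroundings, and multiplexins and transmembrane collagens lie at the cell surface or in its basement membrane. In carcinomas, most fibrillar collagen comes from stromal fibroblasts, and carcinoma cells themselves make collagen to a lesser and variable degree. mir-429 belongs to the miR-200 family, which represses the transcription factors ZEB1 and ZEB2 and so keeps epithelial cells in their epithelial state. The family falls into members with either of 2 seeds, the bases that pair with target mRNAs. The mature sequences from RefSeq (GRCh38.p14) are shown because they define what was added to the cells, with the seed, bases 2 to 8, in capitals. Family members with the seed of mir-429 come first, and those with the other family seed after them.
hsa-miR-429: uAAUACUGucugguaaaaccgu
hsa-miR-200b-3p: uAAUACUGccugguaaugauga
hsa-miR-200c-3p: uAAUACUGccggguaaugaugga
hsa-miR-141-3p: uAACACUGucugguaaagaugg
hsa-miR-200a-3p: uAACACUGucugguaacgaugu
Of 2370 mature miRNA names in that table, 3 carried the seed of mir-429.

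Values are log2 expression, so a step of 1 is a 2-fold change, and the median of an array lay at 3.95 to 4.29. A gene was called where limma's Benjamini-Hochberg adjusted p was under 0.05. Rose and fell describe mir-429 against control cells at the same time, and not a change from untransfected cells. For a change given as a bound, with the words at least, the adjusted p is from the fit to the values as measured. The transfection was checked on ZEB1 and FN1, a fibronectin gene that is lower in epithelial cells. In the mir-429 arrays, ZEB1 averaged 9.05 at 24 h and 9.24 at 48 h, against 10.34 and 10.96 in control arrays, differences of -1.29 ± 0.15 and -1.72 ± 0.15 (SE, limma adjusted p = 6.5e-06 and 1.36e-07). FN1 fell by 1.70 ± 0.12 at 24 h and by 2.66 ± 0.12 at 48 h (adjusted p = 3.13e-08 and 8.91e-11). Neither gene was called at 144 h, where ZEB1 differed by -0.14 ± 0.15 and FN1 by -0.12 ± 0.12. The 3' signal of the GAPDH and ACTB control transcripts exceeded the 5' signal by 8.55 ± 0.15 (SD, n = 3) in mir-429 and by 7.83 ± 0.62 in control arrays at 48 h, so both 48 h groups had little 5' signal. At 24 h the excess was 2.87 ± 0.36 in mir-429 arrays and 4.21 ± 0.21 in control arrays, without overlap, at 144 h it was 3.35 ± 0.13 and 3.90 ± 0.47, and in untransfected arrays it was 3.15 ± 0.53. Of 9 epithelial and ovarian carcinoma markers, 6 passed the filter, among them PAX8, KRT7, KRT8 and KRT18, while EPCAM, MUC16 and KRT19 did not. None of 5 leukocyte markers with a probe set passed it, 3 of 6 fibroblast markers did, and 4 of 8 endothelial markers did, of which CDH5 reached 10.24.

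At 48 h, 4 of the 5 tested fibrillar collagen genes fell in mir-429 cells relative to control cells, together with 2 FACIT genes and 1 type VI gene, while 1 type IV, 1 network, 1 multiplexin and 1 transmembrane gene rose. COL8A1, a network collagen gene, rose at 24 and 48 h, from control values below the array median. It is counted in the calls below, although it passed the filter through its 9 mir-429 arrays alone. At 24 h, 5 of the 22 tested collagens were called, 2 higher and 3 lower in mir-429 than in control cells, which is 22.7% of them against 26.6% of all genes tested (15% higher and 11.6% lower). At 48 h, 11 were called, 4 higher and 7 lower, which is 50% against 20.6% of all genes (9.32% higher and 11.3% lower). Fitted on the 48 h arrays of both arms alone, 2 of these 11, COL5A2 and COL8A1, were still called and the other 9 were not. At 144 h, 3 were called, 1 higher and 2 lower, which is 13.6% against 5.85% of all genes (1.48% higher and 4.37% lower). The median change of the 22 collagens was -0.01 at 24 h, -0.15 at 48 h and -0.06 at 144 h, against -0.02, -0.01 and -0.04 over all genes. Changes of the collagens that were not called lay between -0.44 and 0.50 at 24 h, between -0.44 and 0.61 at 48 h, and between -0.62 and 0.74 at 144 h. COL1A1, COL27A1 and COL8A1 were called at 24 and at 48 h, COL13A1, COL5A1 and COL6A3 at 48 and at 144 h, and none at all 3 times. The counts in each direction by type between mir-429 and control cells at 24, 48 and 144 h were the same after cyclic loess, and after quantile scaling except that 1 FACIT gene fell at 48 h where 2 did in the main setting.

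**Figure D1:**
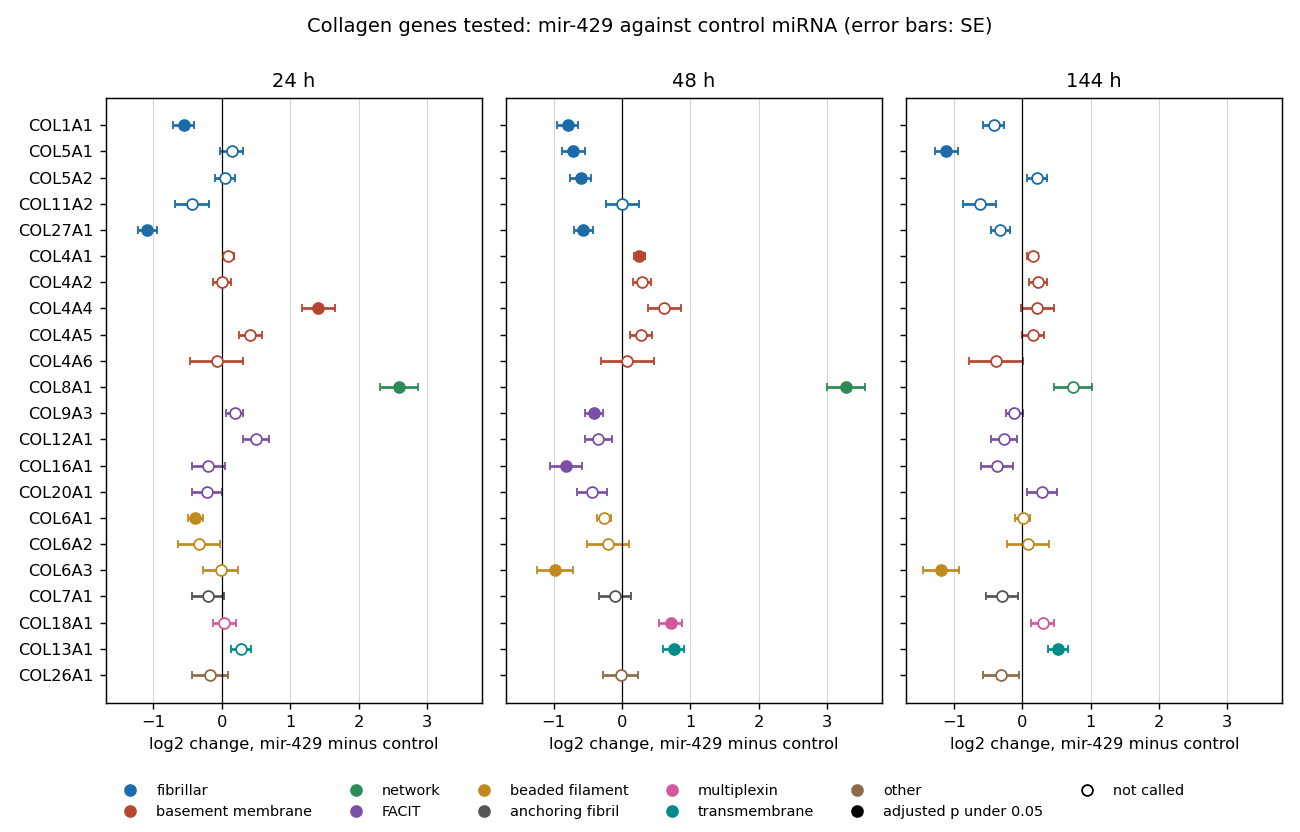
Log2 change of each of the 22 tested collagen genes, mir-429 over control, at 24, 48 and 144 h, with the SE of the fit as bars and genes ordered by collagen type. Filled points mark the 5, 11 and 3 genes called at the 3 times; COL8A1 lies to the right of the others at 24 and 48 h on values as measured, with its control values below the array median.

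Fibrillar collagens were lower or not called in mir-429 cells at every time. Of the 5 tested, 2 fell at 24 h, 4 fell at 48 h and 1 fell at 144 h, and none rose. Of all genes tested, 11.6%, 11.3% and 4.37% fell at these times, and 15%, 9.32% and 1.48% rose. COL1A1 encodes a chain of type I collagen, the main fibril-forming collagen of connective tissue. COL1A1 read 9.25, 8.73 and 8.79 in untransfected arrays. At 24 h it read 7.89, 8.03 and 8.11 in mir-429 arrays and 8.52, 8.55 and 8.65 in control arrays. At 48 h the mir-429 arrays read 7.35, 6.99 and 7.67 and the control arrays 8.28, 8.05 and 8.08. All mir-429 arrays lay below all control arrays of the same time, and the fall was 0.56 ± 0.15 at 24 h and 0.80 ± 0.15 at 48 h on the log2 scale (SE, n = 3, limma adjusted p = 0.011 and 0.00101). At 144 h the mir-429 arrays read 8.28, 8.06 and 8.27 and the control arrays 8.67, 8.50 and 8.69, again without overlap, but the difference of -0.42 ± 0.15 was not called (adjusted p = 0.124). With the 3' to 5' signal as a covariate the 24 h difference was -0.21 ± 0.20 (adjusted p = 0.657), and as the mean of the gene's probe sets it was -0.15 ± 0.12 at 24 h and -0.21 ± 0.12 at 48 h (adjusted p = 0.406 and 0.243). The 24 h call was also lost without mir-429 replicate 1 (adjusted p = 0.0545). At 24 h the 2 other tested probe sets differed by -0.11 and -0.04, and at 48 h by -0.39 and 0.03, none of them called. COL1A2, which encodes the partner chain of type I collagen, stayed below every array median, between 2.23 and 3.39, and was not tested.

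COL27A1, a fibrillar collagen gene best known from cartilage, had the largest fall among collagens at 24 h. Its values were 10.07, 9.64 and 10.08 in untransfected arrays. At 24 h they were 9.38, 9.39 and 9.48 in mir-429 arrays, against 10.59, 10.39 and 10.53 in control arrays. At 48 h they were 9.48, 9.75 and 9.50 in mir-429 arrays, against 10.35, 9.88 and 10.21 in control arrays. The groups were far apart at 24 h and close at 48 h, where the highest mir-429 array was just below the lowest control array. COL27A1 fell by 1.09 ± 0.14 at 24 h (adjusted p = 2.71e-05) and by 0.57 ± 0.14 at 48 h (adjusted p = 0.00747). At 144 h the mir-429 arrays read 9.92, 9.56 and 9.98, against 10.17, 10.16 and 10.11 in control arrays, and the gene was not called. The 3 other tested probe sets of COL27A1 differed by -0.32 to -0.10 at 24 h and by -0.47 to 0.69 at 48 h, and none was called, so the size of the fall rests on 1 probe set. As a mean of the probe sets the change was -0.44 ± 0.14 at 24 h (adjusted p = 0.0287) and -0.25 ± 0.14 at 48 h, where it was no longer called (adjusted p = 0.24).

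COL5A1 and COL5A2 encode chains of type V collagen, which sits inside type I fibrils and sets their diameter. COL5A1 read 5.44, 5.02 and 5.25 in untransfected arrays, and at 24 h 4.99, 4.79 and 4.96 in mir-429 arrays against 4.64, 5.14 and 4.53 in control arrays. These groups overlapped. At 48 h COL5A1 read 4.21, 4.32 and 4.58 in mir-429 arrays, against 4.96, 5.48 and 4.81 in control arrays, and at 144 h 4.52, 4.69 and 4.45 against 5.78, 5.58 and 5.62. From 48 h on, every mir-429 array lay below every control array. COL5A1 fell by 0.71 ± 0.17 at 48 h (adjusted p = 0.00634) and by 1.11 ± 0.17 at 144 h (adjusted p = 0.000747), which made it 1 of 2 collagens that fell at 144 h. Its 2 other probe sets were also called lower at 144 h, at -1.55 and -1.16. At 48 h they differed by -0.68 and -0.37 and were not called.

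COL5A2 had 7.91, 7.67 and 7.97 in untransfected arrays, and at 24 h 7.36, 7.43 and 7.34 in mir-429 arrays against 7.33, 7.76 and 6.89 in control arrays. At 48 h the mir-429 arrays read 7.86, 7.75 and 7.88, against 8.46, 8.40 and 8.45 in control arrays. At 144 h they read 8.28, 8.24 and 8.07, against 7.87, 8.02 and 8.07. Only at 48 h did the groups lie clearly apart, with a fall of 0.61 ± 0.15 (adjusted p = 0.00731). The other probe set of COL5A2 differed by -0.36 at 48 h and was not called. COL11A2, a chain of the cartilage fibril collagen type XI, was above its array median in 13 of 21 arrays and was not called between mir-429 and control cells. It read 4.26, 4.43 and 3.98 in mir-429 arrays at 24 h, against 4.48, 4.78 and 4.71 in control arrays. At 48 h it read 4.12, 4.22 and 3.80 in mir-429 arrays, against 3.53, 4.42 and 4.16 in control arrays, and at 144 h 3.86, 4.09 and 4.40 against 4.82, 4.84 and 4.56. COL11A2 was near the array medians throughout, and the groups lay apart at 24 and 144 h but overlapped at 48 h. The summed level of the 6 fibroblast markers, on the linear scale, was also lower in mir-429 than in control arrays: 130 to 136 against 156 to 211 at 24 h, 124 to 139 against 204 to 266 at 48 h, and 317 to 332 against 431 to 455 at 144 h. FAP alone of the 3 tested was called at 24 and 48 h, PDGFRA and LUM stayed below every array median, and the part of these markers in the collagen values was not tested.

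**Figure D2:**
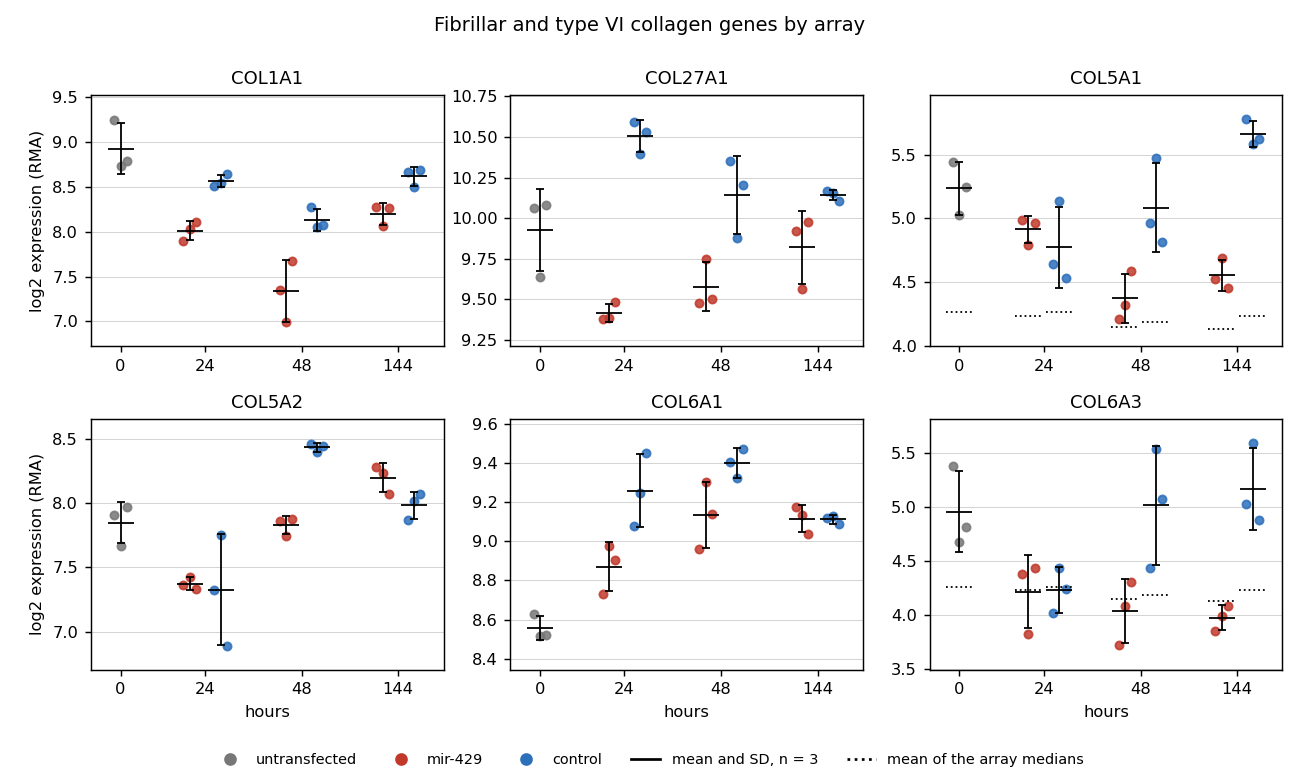
Log2 expression in every array for 4 fibrillar and 2 type VI collagen genes at 0, 24, 48 and 144 h, with mir-429 arrays (red) left of control arrays (blue), untransfected arrays in grey, and bars for the mean and SD of 3 arrays; dotted lines mark the mean of the array medians where it falls within the axis. The mir-429 points of COL1A1 lie below the control points at all 3 times, and those of COL5A1 and COL6A3 at 48 and 144 h.

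Type VI collagen forms beaded filaments that anchor cells to the surrounding matrix, and 1 of its 3 tested genes fell at each time. Of all genes tested, 11.6%, 11.3% and 4.37% fell at 24, 48 and 144 h. COL6A1 fell at 24 h, when it read 8.73, 8.98 and 8.91 in mir-429 arrays and 9.08, 9.25 and 9.45 in control arrays. At 48 h the mir-429 arrays read 8.96, 9.30 and 9.14, against 9.41, 9.32 and 9.47, and at 144 h 9.18, 9.13 and 9.04 against 9.12, 9.13 and 9.09. The groups lay just apart at 24 and 48 h and overlapped at 144 h. Untransfected arrays averaged 8.56, below both arms at 24 h. The fall at 24 h was 0.39 ± 0.11 (adjusted p = 0.0113). It was -0.30 ± 0.16 with the 3' to 5' covariate (adjusted p = 0.342) and -0.02 ± 0.09 as the mean of the probe sets (adjusted p = 0.919), and 4 other tested probe sets ranged from -0.37 to 0.18. The call was also lost without control replicate 3 or mir-429 replicate 1 (adjusted p = 0.0768 and 0.0668).

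COL6A3 read 4.38, 3.83 and 4.44 in mir-429 arrays at 24 h, against 4.02, 4.44 and 4.24 in control arrays. At 48 h it read 3.72, 4.08 and 4.31 in mir-429 arrays, against 4.44, 5.53 and 5.07, and at 144 h 3.86, 3.99 and 4.08 against 5.03, 5.59 and 4.88. From 48 h on all mir-429 arrays were below all control arrays. The mean in mir-429 cells lay below the array medians at both times, so the fall is given as a bound, with values under the median raised to it. COL6A3 fell by at least 0.82 at 48 h and by at least 1.04 at 144 h. As measured, COL6A3 differed by -0.98 ± 0.26 and -1.19 ± 0.26 at these times (limma adjusted p = 0.0111 and 0.00954). It had a single probe set and lay above the array median in 13 of 21 arrays, and in untransfected cells it read 5.38, 4.67 and 4.82. The fall was no longer called without control replicate 2 at 144 h (adjusted p = 0.0734), and at 48 h without control replicate 2 or mir-429 replicate 1 (adjusted p = 0.0607 and 0.0552). COL6A2, which encodes the chain that pairs with the other 2, was not called at any time, with changes of -0.34 ± 0.31, -0.20 ± 0.31 and 0.09 ± 0.31.

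The type IV genes of the basement membrane lie in head-to-head pairs. Of the 5 tested, 1 rose at 24 h, 1 rose at 48 h and none fell in mir-429 cells relative to control cells. Of all genes tested, 15% rose and 11.6% fell at 24 h, 9.32% and 11.3% at 48 h, and 1.48% and 4.37% at 144 h. COL4A1 and COL4A2 encode the chains found in nearly all basement membranes and share a region on chromosome 13 with start sites 127 bases apart. COL4A3 and COL4A4 lie 419 bases apart on chromosome 2, and COL4A5 and COL4A6 lie 380 bases apart on the X chromosome. These 4 genes encode chains of more specialised basement membranes. COL4A4 read 7.97, 7.63 and 7.74 in untransfected arrays, and at 24 h 7.55, 7.17 and 7.54 in mir-429 arrays against 5.83, 6.79 and 5.42 in control arrays. At 48 h it read 7.29, 7.44 and 7.34 in mir-429 arrays against 6.63, 6.91 and 6.68 in control arrays, and at 144 h 7.96, 7.38 and 8.03 against 7.60, 7.57 and 7.54. The control arrays were low at 24 and 48 h, and every mir-429 array at those times lay above every control array. COL4A4 was higher in mir-429 than in control cells by 1.41 ± 0.24 at 24 h (adjusted p = 0.000397), and the difference of 0.61 ± 0.24 at 48 h was not called (adjusted p = 0.0826). As the mean of its probe sets COL4A4 was higher by 0.61 ± 0.12 at 24 h (adjusted p = 0.00149). The other tested probe set differed by 0.46 at 24 h, which was not called, and by 1.00 at 48 h, which was called in the fit of single probe sets (adjusted p = 0.00078). COL4A3, the partner of COL4A4, stayed below every array median, at 2.77 to 3.67, and was not tested.

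The promoter of COL4A4 is shown because it holds a CACCTG or CAGGTG hexamer, the form of E-box bound by ZEB1. The window runs over chr2:227164156-227164455 on the minus strand (RefSeq, GRCh38.p14), from 250 bases before the start site to 50 after it, with the hexamer in capitals, 210 bases before the start.
COL4A4 promoter: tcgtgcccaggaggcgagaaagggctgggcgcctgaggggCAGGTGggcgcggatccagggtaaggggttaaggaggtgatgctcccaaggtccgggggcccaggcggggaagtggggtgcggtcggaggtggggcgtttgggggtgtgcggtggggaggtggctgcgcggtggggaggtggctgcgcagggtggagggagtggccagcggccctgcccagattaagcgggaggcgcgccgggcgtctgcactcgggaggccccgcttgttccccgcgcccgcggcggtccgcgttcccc
Read on either strand, where CACCTG and CAGGTG are each other's reverse complement, 20.6% of all 35116 promoter windows of this length held such a hexamer. Of 43 collagen promoter windows 5 held one, which is 11.6%. Among the collagens, 31 of the 43 genes had a window and 5 of these held one (COL16A1, COL8A2, COL9A2, COL4A4 and COL4A3). The hexamer in the COL4A3 window is the same genomic site, 214 bases before the start of COL4A3. Of these 5 genes, 2 were tested, and COL4A4 rose at 24 h whereas COL16A1 fell at 48 h in mir-429 cells. A match of these letters is a description of the window and not evidence of binding.

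COL4A1 read 10.997, 10.997 and 11.04 in mir-429 arrays at 24 h, against 10.92, 10.97 and 10.86 in control arrays. At 48 h it read 11.24, 11.03 and 11.11 in mir-429 arrays against 10.92, 10.79 and 10.91, and at 144 h 11.29, 11.27 and 11.15 against 11.10, 11.09 and 11.06. The mir-429 arrays lay above the control arrays at each time by a small margin, and untransfected arrays read 10.75, 10.74 and 10.77. The rise was called at 48 h alone, at 0.25 ± 0.08 (adjusted p = 0.0299), and with the 3' to 5' covariate it was 0.26 ± 0.09 (adjusted p = 0.0659). The call was also lost without control replicate 2, mir-429 replicate 1 or mir-429 replicate 3 (adjusted p = 0.0901, 0.13 and 0.0617). COL4A2, its partner, read 10.45, 10.58 and 10.46 at 24 h in mir-429 arrays, against 10.39, 10.73 and 10.37 in control arrays. At 48 h COL4A2 read 10.15, 9.87 and 10.12 against 9.71, 9.56 and 9.98, and at 144 h 10.79, 10.99 and 10.82 against 10.64, 10.57 and 10.70. COL4A2 overlapped between the arms at 24 and 48 h and lay apart at 144 h, and its difference at 48 h of 0.29 ± 0.13 was not called (adjusted p = 0.127). Its other probe set was called higher at 48 h, at 0.94 (adjusted p = 0.0219), and so was the mean of both, at 0.62 (adjusted p = 0.0165).

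COL4A5 read 7.33, 6.99 and 7.31 at 24 h in mir-429 arrays, against 7.07, 6.83 and 6.48 in control arrays. At 48 h it read 7.52, 7.82 and 7.85 against 7.20, 7.87 and 7.30, and at 144 h 7.52, 7.58 and 7.41 against 7.40, 7.29 and 7.36. The arms overlapped at 24 and 48 h, and COL4A5 was not called at any time. COL4A6 was above its array median in 18 of 21 arrays, differed by -0.08 ± 0.39, 0.08 ± 0.39 and -0.38 ± 0.39 at the 3 times and was not called. At 48 h the differences of the 5 tested type IV genes lay between 0.08 and 0.61, and 1 was called. Over all genes the median was -0.01 and 9.32% were called higher, and the share above 0 was not counted. COL4A2, COL4A5 and COL4A6 overlapped between the arms at 48 h.

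**Figure D3:**
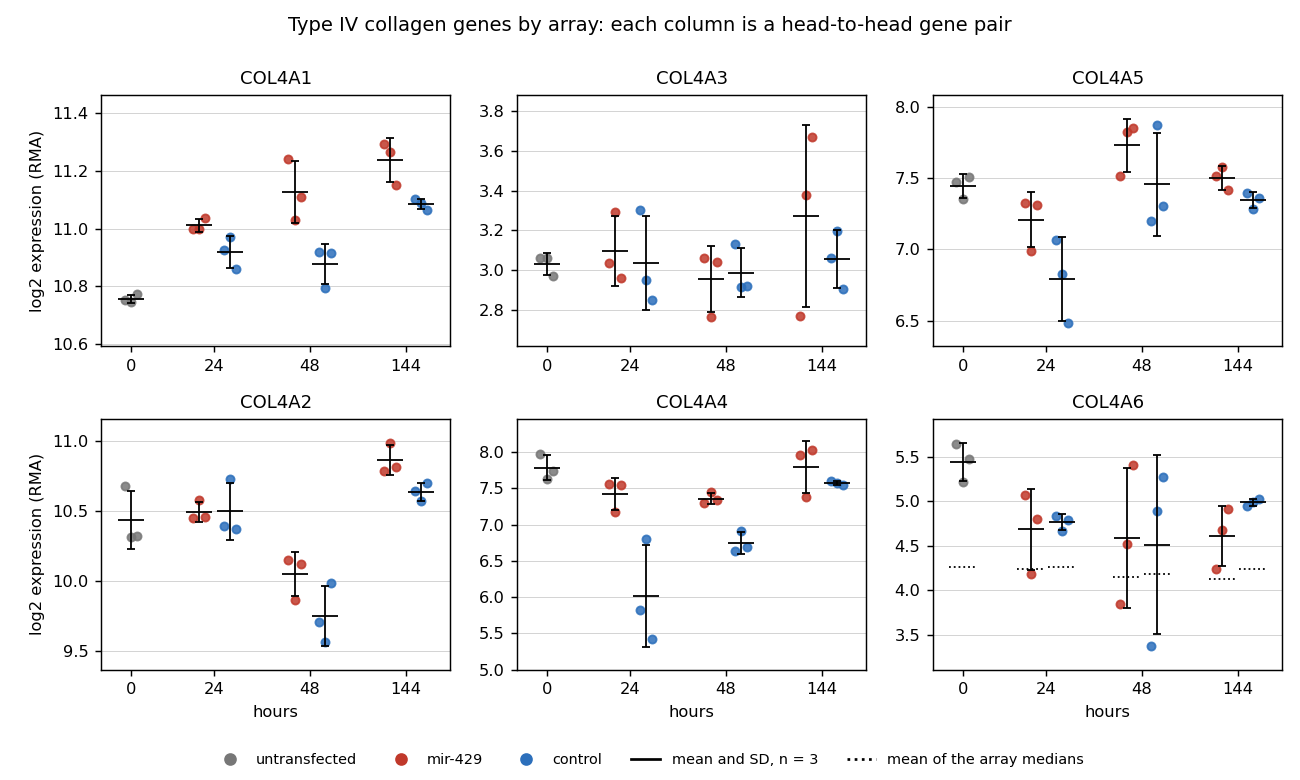
Log2 expression in every array for the 6 type IV collagen genes at 0, 24, 48 and 144 h, with each head-to-head pair in 1 column, mir-429 arrays (red) left of control arrays (blue), untransfected arrays in grey, and bars for the mean and SD of 3 arrays. The control points of COL4A4 drop at 24 h, between 5.42 and 6.79, while the mir-429 points lie between 7.17 and 7.55.

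COL8A1, a short-chain network collagen gene described in vessel walls and in the cornea, was below the array median in every untransfected and control array. COL8A1 read 2.65, 3.38 and 2.88 in untransfected arrays. At 24 h it read 5.38, 5.46 and 5.31 in mir-429 arrays, against 2.62, 3.51 and 2.24 in control arrays, and at 48 h 6.71, 6.21 and 6.16 against 3.26, 3.25 and 2.74. Every mir-429 array was far above every control array at both times. The rise, with control values raised to the array median, was at least 1.12 at 24 h and at least 2.18 at 48 h. The fitted differences on the measured values were 2.59 ± 0.28 and 3.27 ± 0.28 (limma adjusted p = 4e-06 and 1.43e-07). At 144 h the mir-429 arrays read 4.14, 4.34 and 4.98, against 3.79, 3.50 and 3.94 in control arrays, without overlap, and the difference of 0.74 ± 0.28 was not called (adjusted p = 0.137). COL8A1 was above the median in 9 arrays, all of them mir-429 arrays, so passing the filter already required it to differ. Its 2 other probe sets did not pass the filter. COL8A2 and COL10A1, the other network genes, were below the median in every array and were not tested.

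FACIT genes were lower in mir-429 than in control cells at 48 h in 2 of 4 tested cases, COL16A1 and COL9A3. They were not called at the other times. Of all genes tested, 11.3% fell at 48 h. COL16A1, whose product lies next to fibrils, read 5.06, 5.61 and 5.26 at 24 h in mir-429 arrays, against 5.30, 6.07 and 5.15 in control arrays. At 48 h COL16A1 read 4.72, 5.24 and 5.10 in mir-429 arrays, against 5.89, 6.13 and 5.49, and at 144 h 4.41, 4.95 and 5.09 against 5.12, 5.20 and 5.22. The arms overlapped at 24 h and lay apart at the later times. The 48 h means of COL16A1 were 5.02 in mir-429 and 5.84 in control arrays, beside 4.92 in untransfected arrays. COL16A1 fell by 0.82 ± 0.24 at 48 h (adjusted p = 0.0201), and the call was lost without control replicate 1, control replicate 2 or mir-429 replicate 1 (adjusted p = 0.0526, 0.0796 and 0.0908).

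COL9A3, a chain of type IX collagen on cartilage fibrils, read 5.80, 5.88 and 5.76 at 24 h in mir-429 arrays, against 5.66, 5.63 and 5.59 in control arrays. At 48 h COL9A3 read 5.0, 5.27 and 5.24 in mir-429 arrays, against 5.24, 5.75 and 5.73, and at 144 h 5.66, 5.73 and 5.59 against 5.70, 5.86 and 5.76. Its fall at 48 h was 0.41 ± 0.13 (adjusted p = 0.0321), although 1 control array lay among the mir-429 arrays. The call was lost after quantile scaling, without the filter, with the 3' to 5' covariate, in the fit of the arrays compared alone, and without any 1 of control replicates 2 and 3 and mir-429 replicates 1 and 3 (adjusted p = 0.0502 to 0.132). COL12A1, a FACIT gene expressed in stressed and dense connective tissue, read 9.27, 9.11 and 9.18 at 24 h in mir-429 arrays, against 8.56, 9.28 and 8.22 in control arrays. At 48 h COL12A1 read 8.70, 9.07 and 9.16 in mir-429 arrays, against 9.13, 9.57 and 9.26, and at 144 h 9.03, 9.26 and 9.11 against 9.31, 9.38 and 9.52. Control arrays differed widely at 24 h, and COL12A1 was not called (0.50 ± 0.19 at 24 h, adjusted p = 0.0624). A dimmer probe set of COL12A1 was called higher in mir-429 cells at 48 h, at 0.54 (limma adjusted p = 0.0477). There the brightest differed by -0.35 and another by -0.02. COL20A1 differed by -0.22 ± 0.22, -0.44 ± 0.22 and 0.29 ± 0.22 at 24, 48 and 144 h and was not called.

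At 48 h, when 9.32% of all genes rose, the tested transmembrane and multiplexin genes were both higher in mir-429 than in control cells. Their mir-429 means then, 7.38 for COL13A1 and 6.82 for COL18A1, lay below the untransfected means of 7.62 and 7.16. COL13A1, a transmembrane collagen found at cell contacts, read 6.72, 6.37 and 6.53 at 24 h in mir-429 arrays, against 6.26, 6.24 and 6.28 in control arrays. At 48 h it read 7.11, 7.57 and 7.47 in mir-429 arrays, against 6.73, 6.32 and 6.84, and at 144 h 8.34, 8.08 and 8.30 against 7.61, 7.78 and 7.75. The mir-429 arrays were above the control arrays at every time. COL13A1 rose by 0.75 ± 0.15 at 48 h (adjusted p = 0.00125) and by 0.53 ± 0.15 at 144 h (adjusted p = 0.0413), and at 144 h the call was lost when any 1 of the 6 arrays was left out (0.47 to 0.61, adjusted p = 0.0544 to 0.151). As the mean of the probe sets the 48 h difference was 0.41 ± 0.14 and not called (adjusted p = 0.0551). The 2 other tested probe sets of COL13A1 differed by 0.54 and -0.07 at 48 h, neither called. COL18A1, a basement membrane multiplexin whose C-terminal fragment is endostatin, read 6.91, 6.73 and 6.83 at 48 h in mir-429 arrays, against 6.16, 5.67 and 6.51 in control arrays. At 24 h COL18A1 read 7.11, 7.33 and 7.38 in mir-429 arrays, against 7.06, 7.41 and 7.23, and at 144 h 7.96, 7.83 and 7.88 against 7.51, 7.53 and 7.74. COL18A1 overlapped between the arms at 24 h and lay apart at 48 and 144 h, with a rise of 0.71 ± 0.17 at 48 h (adjusted p = 0.00513). Its other tested probe set differed by 0.26 at 48 h and was not called. COL7A1, whose product forms anchoring fibrils under epithelia, was not called at any time and differed by -0.20 ± 0.24, -0.10 ± 0.24 and -0.29 ± 0.24. COL26A1 was not called either, at -0.17 ± 0.26, -0.02 ± 0.26 and -0.31 ± 0.26.

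**Figure D4:**
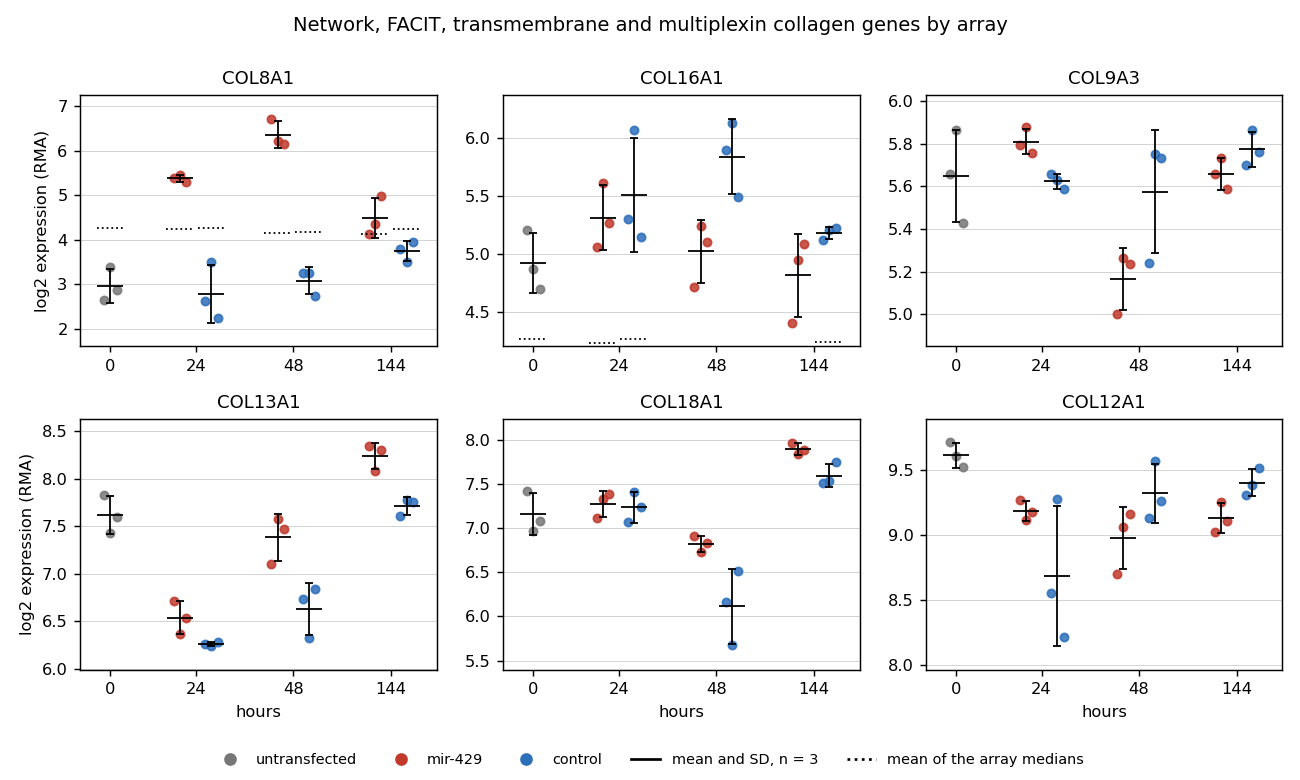
Log2 expression in every array for COL8A1, COL16A1, COL9A3, COL13A1, COL18A1 and COL12A1 at 0, 24, 48 and 144 h, drawn with mir-429 arrays (red) left of control arrays (blue) and untransfected arrays in grey; bars are the mean and SD of 3 arrays, and dotted lines the mean of the array medians where it falls within the axis. COL8A1 control points lie below the dotted line at every time, and its mir-429 points lie between 6.16 and 6.71 at 48 h.

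Whether the mir-429 effect on a collagen differed between times was tested directly. Between 48 and 24 h, 0 of 22 collagens were called by limma against 4.89% of all genes (1.75% higher and 3.14% lower), 9 having an unadjusted p under 0.05. Between 144 and 24 h, 5 were called, 1 higher and 4 lower, which is 22.7% against 18.6% of all genes (6.32% higher and 12.3% lower). The effect on COL5A1 was lower at 144 than at 24 h, at -1.25 ± 0.24 (adjusted p = 0.00221), with no call at 24 h and a fall at 144 h. The effect on COL6A3 was lower, at -1.17 ± 0.37 (adjusted p = 0.0323), with the dim values as measured. The effect on COL27A1 was higher by 0.77 ± 0.20 (adjusted p = 0.0127), with a fall at 24 h and no call at 144 h. For COL4A4 the difference was -1.19 ± 0.34 (adjusted p = 0.0219), with a rise in mir-429 cells at 24 h and no call at 144 h. For COL8A1 it was -1.85 ± 0.39 (adjusted p = 0.00433) on values measured below the array median in all control arrays, and -0.87, with no test, when such values were raised to the median. For COL6A3 the raised values gave -1.05. The call was lost for COL4A4 without control replicate 3 or mir-429 replicate 1 at 24 h or mir-429 replicate 2 at 144 h (adjusted p = 0.0591 to 0.0651), and for COL6A3 without any 1 of 7 of the 12 arrays (adjusted p = 0.0572 to 0.0932). The comparisons of mir-429 with control cells and of control with untransfected cells share the control arrays.

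Many genes, collagens among them, differed between control and untransfected cells at 24 and 48 h. At 24 h, 9 of 22 collagens were called, 2 higher and 7 lower in control cells, which is 40.9% against 38% of all genes (18.3% higher and 19.8% lower). At 48 h 9 were called, 3 higher and 6 lower, which is 40.9% against 54.5% (18.4% higher and 36.1% lower). At 144 h 1 was called higher, which is 4.55% against 0.474% (0.28% higher and 0.194% lower). Transfection and time in culture cannot be told apart here. Marker sums also differed. The 8 endothelial markers summed to 270 to 318 at 24 h and 365 to 401 at 48 h in control arrays, against 932 to 1037 in untransfected arrays. The 6 fibroblast markers summed to 156 to 211 and 204 to 266, against 308 to 381. The median log2 change of the 3 tested fibroblast markers, however, was 0.23 at 24 h and -0.01 at 48 h. That of the 4 tested endothelial markers was -0.27 and -0.36. CDH5 alone of 4 tested endothelial and FAP alone of 3 tested fibroblast markers was called at these times, both lower, while EMCN, ERG, PDGFRA and LUM stayed below every array median, and their part in the collagen values was not tested. COL4A4 was lower in control cells, at -1.77 ± 0.24 at 24 h and -1.04 ± 0.24 at 48 h (adjusted p = 3.26e-05 and 0.00145). Its other tested probe set gave -0.60 and -0.46, and the mean of the probe sets -0.72 ± 0.12 at 24 h and -0.25 ± 0.12 at 48 h, where it was not called (adjusted p = 0.000238 and 0.0918). COL13A1, which read 7.83, 7.43 and 7.59 in untransfected arrays, was lower, at -1.36 ± 0.15 and -0.99 ± 0.15 (adjusted p = 3.12e-06 and 2.4e-05). Its 2 other tested probe sets gave -0.19 and -0.47 at 24 h, neither called. At 48 h they gave -0.01 and -0.64, the latter called (limma adjusted p = 0.00806). COL6A1, which read 8.63, 8.52 and 8.52 in untransfected arrays, was higher in control cells at all 3 times, by 0.70 ± 0.11, 0.84 ± 0.11 and 0.56 ± 0.11 (adjusted p = 8.21e-05, 3.83e-06 and 0.0189). Its other tested probe sets ranged from -0.12 to 0.30 at 24 h, from -0.41 to 0.17 at 48 h and from -0.09 to 0.11 at 144 h, none called in the same direction, and its 144 h call was lost when any 1 of the 6 arrays other than untransfected replicate 1 was left out (adjusted p = 0.0748 to 0.123).

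At 24 h, COL12A1 was lower in control cells, at -0.93 ± 0.19 (adjusted p = 0.00111), with 9.72, 9.60 and 9.52 in untransfected arrays. Its probe sets disagreed. Of the dimmer ones, 1 was called the other way, at 0.63, and another the same way, at -1.33 (limma adjusted p = 0.0121 and 0.0476). The mean of the probe sets was -0.35 ± 0.13 (adjusted p = 0.0391). COL4A5 was lower, at -0.65 ± 0.16 (adjusted p = 0.00459), with 7.47, 7.35 and 7.51 in untransfected arrays. COL27A1 was higher by 0.58 ± 0.14 (adjusted p = 0.00366). The calls of COL4A5 and COL27A1 were lost with the mean of the probe sets and with the 3' to 5' covariate. The 3 other tested probe sets of COL27A1 ranged from -0.06 to 0.38, none called. COL6A3 was lower by at least 0.62 (adjusted p = 0.0336), and COL5A2 and COL5A1 were lower, at -0.52 ± 0.15 and -0.46 ± 0.17 with overlapping arrays (adjusted p = 0.0103 and 0.0403). The COL5A2 call was lost without untransfected replicate 3 or control replicate 3, and those of COL6A3 and COL5A1 without any 1 of untransfected replicates 1 and 3 and control replicates 1 and 3 (adjusted p from 0.0507 to 0.185). At 48 h, COL18A1 was lower, at -1.04 ± 0.17 (adjusted p = 4.48e-05), with 7.42, 6.97 and 7.08 in untransfected arrays. COL1A1 was lower, at -0.79 ± 0.15 and COL4A2 at -0.68 ± 0.13 (adjusted p = 0.000284 and 0.000271), with COL4A2 at 10.68, 10.31 and 10.32 in untransfected arrays. COL11A2 was lower, at -0.66 ± 0.24 as measured with overlapping arrays (limma adjusted p = 0.0298), with 5.02, 4.05 and 5.01 in untransfected arrays. With values under the median raised to it the change was -0.50, which is no bound because an untransfected value was raised too. The call was lost after cyclic loess or quantile scaling, in the fit of the arrays compared alone and with the 3' to 5' covariate. It was also lost without untransfected replicate 1 or 3 or control replicate 1 (adjusted p = 0.133 to 0.179). COL16A1 was higher by 0.91 ± 0.24, with 5.20, 4.87 and 4.69 in untransfected arrays, and COL5A2 by 0.59 ± 0.15 (adjusted p = 0.00332 and 0.00302). COL9A3 was not called in the control arm, with 5.66, 5.86 and 5.43 in untransfected arrays. With the 3' to 5' covariate none of the 9 calls at 48 h was kept, and 3 collagens had an unadjusted p under 0.05. The 48 h control arrays differed from the untransfected arrays in 3' to 5' signal by more than the spread within either group (7.83 against 3.15), and the part of RNA quality in these values was not tested.

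The other 21 collagen genes stayed at or below the array median in all 21 arrays, between 1.14 and 4.22, and were not tested. They were the fibrillar genes COL1A2, COL2A1, COL3A1, COL5A3, COL11A1 and COL24A1, the FACIT genes COL9A1, COL9A2, COL14A1, COL19A1, COL21A1 and COL22A1, the type VI genes COL6A5 and COL6A6, the network genes COL8A2 and COL10A1, COL4A3, the multiplexin COL15A1, the transmembrane genes COL23A1 and COL25A1, and COL28A1. COL1A2 and COL3A1, the usual partners of COL1A1 in fibroblast matrix, were among them.

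Genes that build collagen were followed from lists of known roles. Of 21 tested genes for collagen modification and folding, 3 were higher and 6 lower in mir-429 than in control cells at 24 h, 0 and 5 at 48 h, and 0 were called at 144 h, beside 26.6%, 20.6% and 5.85% of all genes called at these times. At 144 h 1 had an unadjusted p under 0.05. PLOD2, a lysyl hydroxylase, fell by 0.55 ± 0.11 at 24 h and by 0.46 ± 0.11 at 48 h (adjusted p = 0.001 and 0.00431), and CRTAP, part of the prolyl 3-hydroxylation complex, fell by 0.59 ± 0.12 and 0.51 ± 0.12 (adjusted p = 0.00116 and 0.00418). P3H4 fell by 0.81 ± 0.18 at 24 h, and FKBP14, a folding factor, by 0.85 ± 0.08 at 48 h (adjusted p = 0.00243 and 9.95e-07). None of 6 procollagen processing genes and none of 4 fibril partners was called by limma at any time; at an unadjusted p under 0.05, 0, 1 and 2 of the 6 passed at 24, 48 and 144 h and 0 of the 4.

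Lysyl oxidases cross-link collagen. Of the 5, 1 rose and 1 fell at 24 h (26.6% of all genes were called), 3 rose and 1 fell at 48 h (20.6%), and 0 were called at 144 h (5.85%), where 2 had an unadjusted p under 0.05. LOX averaged 5.40 at 24 h and 5.36 at 48 h in mir-429 cells, against 7.49 and 8.09 in control cells, differences of -2.09 ± 0.13 and -2.73 ± 0.13 (adjusted p = 9.36e-09 and 1.37e-10). LOXL2 rose by 0.43 ± 0.10 and by 0.71 ± 0.10 (adjusted p = 0.00552 and 7.19e-05), and LOXL3 rose by 1.39 ± 0.23 at 48 h (adjusted p = 0.000234). LOX thus moved against LOXL2 and LOXL3 in mir-429 cells. Of 6 tested collagen receptors, 0 rose and 3 fell at 24 h (26.6% of all genes were called), 1 rose and 2 fell at 48 h (20.6%), and 0 were called at 144 h (5.85%), with 0 at an unadjusted p under 0.05. ITGA1, a collagen-binding integrin chain, fell by 1.14 ± 0.18 at 24 h (adjusted p = 0.000194) and by at least 0.47 at 48 h (adjusted p = 0.0172), while ITGA2, another such chain, rose by 0.61 ± 0.12 at 48 h (adjusted p = 0.00169). MRC2, an endocytic collagen receptor, fell by 0.66 ± 0.18 at 24 h, and ADGRG1 fell by 0.32 ± 0.10 at 24 h and by 0.39 ± 0.10 at 48 h (adjusted p = 0.0104, 0.0312 and 0.0123).

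Of 6 tested proteases that cleave collagen, 2 fell at 24 h, 3 fell at 48 h and 1 rose at 144 h, beside 26.6%, 20.6% and 5.85% of all genes called. MMP1, an interstitial collagenase, averaged 7.60, 4.72 and 8.68 at 24, 48 and 144 h in mir-429 cells, against 8.91, 6.87 and 6.60 in control cells. MMP1 fell by 1.30 ± 0.17 and by 2.16 ± 0.17 at the first 2 times and rose by 2.08 ± 0.17 at 144 h (adjusted p = 3.74e-05, 7.35e-08 and 1.42e-06). FAP, a serine protease of the cell surface, fell by 0.58 ± 0.16 at 24 h and by 1.35 ± 0.16 at 48 h (adjusted p = 0.0129 and 9.84e-06), and MMP9, a gelatinase, fell by at least 0.42 at 48 h (adjusted p = 0.00064). CDH5, an endothelial cadherin gene that is bright in these cells, was the 1 of 4 tested endothelial markers called at 144 h, at 0.79 ± 0.13 higher in mir-429 cells (adjusted p = 0.00141). The summed level of the 8 endothelial markers was 1234 to 1289 in mir-429 and 655 to 922 in control arrays at 144 h. The median log2 change of the 4 tested ones was nevertheless -0.23, so the sum does not stand for the list. The part of these markers in the collagen values was not tested.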

How the data were processed

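The data are 21 expression arrays of HEY cells, as a table of 54675 probe sets. Its deposited log2 values came from RMA, according to the submitters' processing notes. What software ran RMA is not given in the sources used. The main setting used the values without further scaling. The platform annotation named a single gene for 41097 probe sets, more than 1 gene for 1801, and no gene for 11777. Symbols were updated through Entrez identifiers in RefSeq (GRCh38.p14), which matched 99.9% of them. Precision is limited by the number of arrays.

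The fit used lmFit and eBayes of limma 3.58.1 (R 4.3.3), with a mean for each of 7 groups, 14 residual and 3.93 prior degrees of freedom. The brightest single-symbol probe set of a gene had to lie above its array median in at least 3 arrays, which set aside 6896 genes. Tests were two-sided in 8 comparisons, with Benjamini-Hochberg adjustment over 12879 genes and a threshold of 0.05. Values are log2 changes ± SE, with n = 3 per group. Where a group's mean lay below its array medians, values under the median in either group compared were raised to it. The change is then a bound where the other group had no such values. Bounds were not tested, and the adjusted p beside them is that of the measured change. The SE pools the spread over groups, although the SD of differences between arrays of a group was 0.17 to 0.25 in untransfected and 0.39 to 0.47 in control arrays at 48 h.

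Every collagen gene was accounted for, and those called in at least 1 comparison were named with all their values. Up to 3 called genes with the smallest p per list and mir-429 comparison were named as well. The members, lists, comparisons and alternatives were chosen with earlier results of these data known. Alternatives were cyclic loess and quantile scaling, no filter, the mean of a gene's probe sets, only the arrays compared, replicate number as a block, the 3' to 5' signal as a covariate, leaving out the 48 h arrays and each array in turn, and, added after seeing the data, each probe set on its own. The test was tried on simulated data first.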

Additional observations from a re-analysis of the deposited data

Results flagged for a closer look

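The mir-429 effect differed between 144 and 24 h, by a test of the difference itself, for 5 collagen genes. The difference, 144 h minus 24 h, was 0.77 for COL27A1, -1.19 for COL4A4, -1.25 for COL5A1, -1.17 for COL6A3 and -1.85 for COL8A1 (log2, limma adjusted p = 0.0127, 0.0219, 0.00221, 0.0323 and 0.00433). COL8A1 passed the filter through its 9 mir-429 arrays alone, so passing already required it to differ between the arms. Its control values lay below the array median. With such values raised to the median the difference was -0.87 for COL8A1 and -1.05 for COL6A3, with no test. The difference for COL5A1 was called in each of the 8 alternatives and with each array left out. COL27A1, COL4A4 and COL6A3 lost the call in 2 or 3 of the 8 alternatives. The other tested probe set of COL4A4 gave 0.16, opposite in sign, and was not called.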

How the results depend on the processing

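The mean of probe sets called 2 collagens at 24 h (5 in the main setting), 2 in the 144 h minus 24 h difference (5) and 5 in control against untransfected cells at 24 h (9). The 3' to 5' covariate called 3, 2 and 5 in these comparisons, 0 in control against untransfected cells at 48 h (9 in the main setting) and 0 at 144 h (1), where 3 and 4 had an unadjusted p under 0.05, and COL16A1 in control against untransfected cells at 48 h came to -0.35 with it and 0.91 without. Only the arrays compared called 3 at 48 h between mir-429 and control cells (11) and 2 in the 144 h control comparison, where quantile scaling called 2 and no filter 0. Cyclic loess called 1 in the 48 h minus 24 h difference (0). COL8A1 gave no value as a mean of probe sets, which did not pass the filter. The causes were not tested.

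Leaving out each array in turn gave 3 to 6 calls at 24 h, 7 to 12 at 48 h and 1 to 2 at 144 h between mir-429 and control cells, 0 to 5 in the 48 h minus 24 h and 3 to 6 in the 144 h minus 24 h difference, and 6 to 9, 8 to 11 and 0 to 1 for control against untransfected cells at 24, 48 and 144 h. The lowest counts came without mir-429 replicate 1 at 24 h (3), without mir-429 replicate 1 at 48 h (7) and without control replicate 2 at 144 h (1). The 5 calls came without control replicate 2 at 24 h, and 3 and 2 without control replicates 1 and 3 at 48 h. The 144 h minus 24 h count was 3 without control replicate 3 or mir-429 replicate 1 at 24 h, or without mir-429 replicate 2 at 144 h.

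Of 320 values of 43 called results under the other alternatives, 255 kept the call, 64 lost it and 1 reversed, with 22 lost under the covariate, 15 under the mean of probe sets and 14 with only the arrays compared. Deviations of same-numbered samples correlated with r from -0.41 to 0.31 over 63 pairs, 17 of them over 0.1. Between mir-429 and control cells r was 0.28, 0.09 and 0.18 at 24 h. It was -0.13, -0.08 and 0.09 at 48 h, and 0.20, -0.06 and -0.04 at 144 h. Samples of different numbers were not compared, and numbers were not taken as pairs in the main setting. With the replicate number as a block, 0 of the 43 calls were lost, and the 48 h minus 24 h count was 1.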
